A study of Mus musculus with 8 samples.

Results

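Zinc moves through the lactating mammary gland by way of SLC30 (ZnT) transporters, SLC39 (ZIP) transporters and metallothioneins, and 9 genes of these families were compared here between glands of wild-type (WT) mice and of mice without Th-POK (knockout, KO). The genes were Slc30a1, Slc30a2, Slc30a4, Slc30a5, Slc39a4, Slc39a8, Slc39a14, Mt1 and Mt2, chosen by name out of the 18749 genes that had a probe on the array. Each was found through the accession of its probe. The RNA came from No. 4 glands of 4 WT and 4 KO females of the C57/Bl6 strain at lactation day 1. Each dam had an Agilent array of its own with 1 dye, and what was measured is how bright each probe was. Th-POK is a zinc finger transcription factor encoded by Zbtb7b. The methods name neither a Cre nor a tissue-restricted promoter for the knockout and the array methods give no age for these dams.

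ZnT proteins carry zinc out of the cytosol, either across the plasma membrane or into vesicles and the Golgi apparatus, and ZIP proteins carry it into the cytosol. Metallothioneins are small cysteine-rich proteins that hold zinc in the cytosol, and their genes are induced by zinc through the metal-sensing factor MTF-1. The secretory cells of the alveoli deliver zinc into milk, for which ZnT2 (Slc30a2) and ZnT4 (Slc30a4) are best known: mothers with changes in the gene for ZnT2 make zinc-poor milk, and the lethal milk mouse carries a change in Slc30a4.

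Of the 9 genes, Slc30a2 and Slc30a5 were lower in the KO glands. Slc30a2 signal fell 2.11-fold and Slc30a5 signal fell 1.33-fold. No gene of the 9 was called higher in the comparison that leaves the replicate numbers out. With the replicate number as a block in the fit, Slc30a1 and Mt2 were called higher, and Slc30a2 and Slc30a5 lower. Mt1 and Mt2 differed most from dam to dam. Values below are log2 signals after quantile normalization between the 8 arrays, and genes were compared with limma, with Benjamini-Hochberg adjustment over the 14137 genes tested. A gene was called at an adjusted p under 0.05. All 9 genes were well above background on all 8 arrays and were all tested. Over all genes tested, 16.5% were called, 7.53% higher and 8.96% lower in the KO glands, against 0 higher and 2 lower among the 9. With the replicate block these shares were 8.75% higher and 10.8% lower, against 2 higher and 2 lower among the 9. At an unadjusted p under 0.05 the 9 genes also gave 0 higher and 2 lower, both in limma (16.7% higher and 19.6% lower over all genes tested) and in the methods' t-test on the same values (15.6% and 18.1%). All arrays of a genotype lay beyond all arrays of the other for 24.1% of the genes tested, and for 2 of the 9. The median difference over the 9 was -0.22 on the log2 scale, beside -0.02 over all genes tested.

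Zbtb7b served as the check of the genotypes. Its signal fell at least 81.5-fold, and its probe was not well above background on any KO array. It passed the filter only through the WT arrays. Its call (adjusted p = 5.71e-09, limma) therefore rests on KO values that were not well above background. The WT arrays shared 1 slide and the KO arrays shared a different one, so genotype and slide cannot be told apart. Each array had 67.1% to 75.6% of its spots well above background and 0 saturated. Precision is limited by there being 4 arrays a genotype. A whole gland also mixes cell types, and fewer cells of a type cannot be told apart from less RNA per cell.

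**Figure D1:**
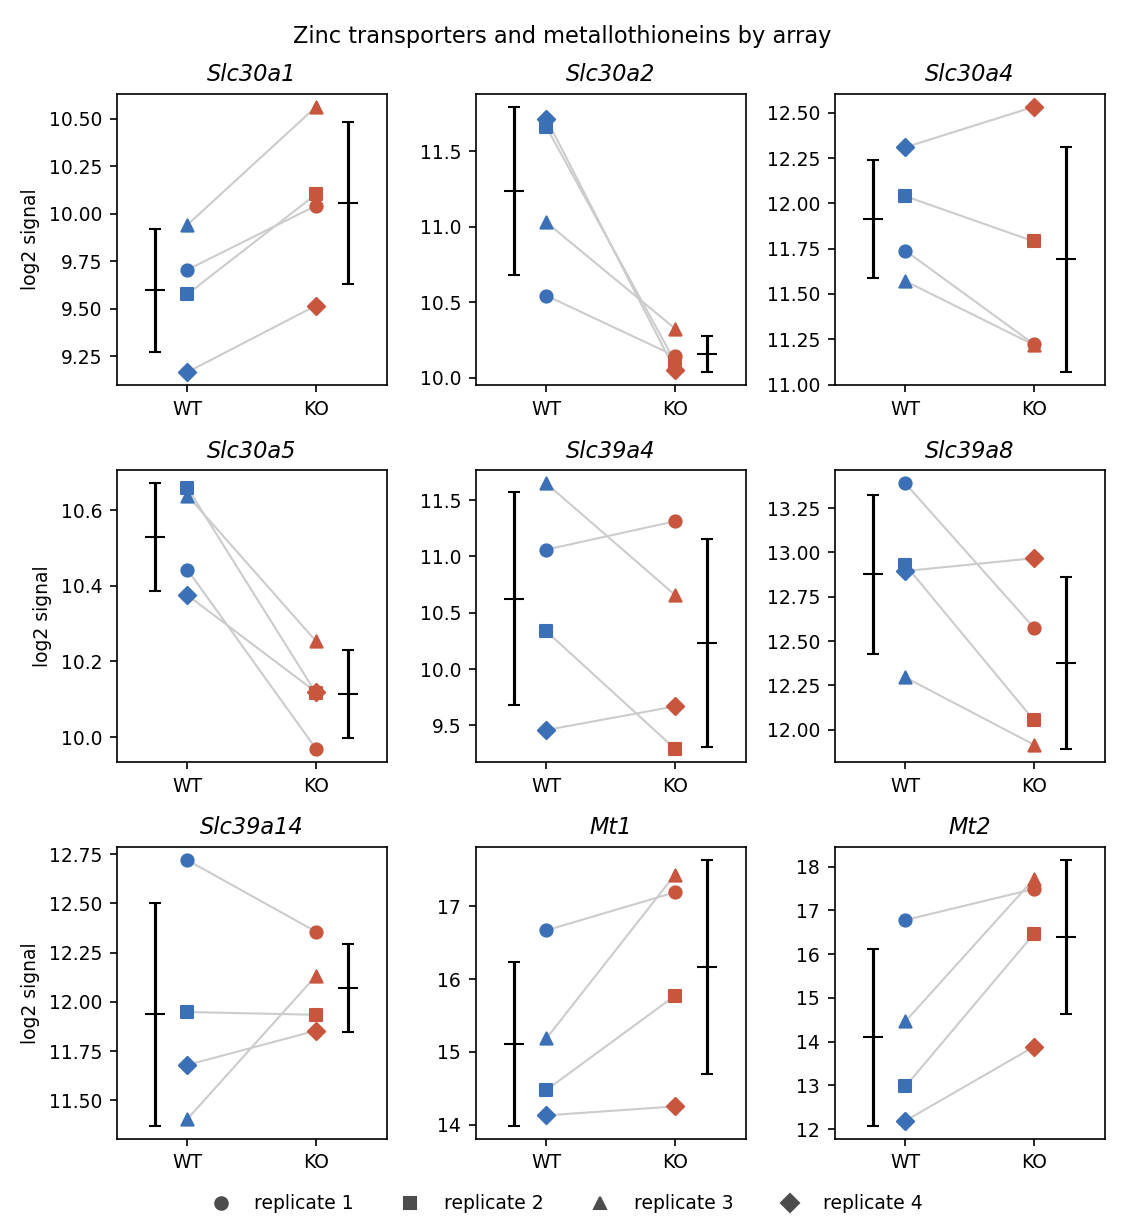
Log2 signal of each of the 9 genes on the 4 WT and 4 KO arrays. Symbols give the replicate number, grey lines join arrays of the same number, and black bars give the mean and SD of each genotype (n = 4). The vertical axes do not start at 0 and differ between panels. Genotypes do not overlap for Slc30a2 and Slc30a5 and overlap for the other 7 genes.

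Slc30a2 encodes ZnT2, which loads zinc into the secretory vesicles of mammary epithelial cells. Its log2 signal (probe A_51_P306287) was 10.54, 11.66, 11.03 and 11.72 on WT arrays 1 to 4 and 10.14, 10.11, 10.33 and 10.05 on KO arrays 1 to 4. Every KO array lay below every WT array, and WT arrays 2 and 4 were the brightest. The means were 11.24 ± 0.56 (SD, n = 4) in WT and 10.16 ± 0.12 (SD, n = 4) in KO, a difference of -1.08 on the log2 scale with a standard error of 0.25 and a 95% interval from -1.65 to -0.51 (adjusted p = 0.0275, limma). A larger absolute difference was found in 5.98% of the genes tested. The WT arrays spanned 2.25-fold and the KO arrays 1.21-fold, so the spread lay mainly among the WT dams. Set against the WT array of its own number, the KO array was lower in 4 of 4 pairs, with differences of -0.40 to -1.66. The share of all genes tested with 4 of 4 pairs in 1 direction was not counted. Such a count, here and below, therefore does not mark a gene out.

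The Slc30a2 call sat close to the threshold. Leaving out 1 array at a time kept the sign and put the adjusted p from limma between 0.00897 and 0.0733. The call was lost without WT replicate 2 (adjusted p = 0.0733), WT replicate 3 (0.0539), KO replicate 1 (0.0655), KO replicate 2 (0.0645) or KO replicate 3 (0.0642). In those fits the number of genes called in the whole table was between 518 and 982, where it was 2331 with all arrays. The methods' t-test on the same values gave an adjusted p of 0.063.

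Slc30a4 encodes ZnT4, the other vesicular exporter tied to milk zinc. Its log2 signal was 11.74, 12.04, 11.57 and 12.31 in WT and 11.22, 11.79, 11.22 and 12.53 in KO. The genotypes overlapped: the highest value and the lowest values were both from KO arrays. The difference was -0.22 (standard error 0.31, 95% interval -0.92 to 0.47, adjusted p = 0.628, limma), and KO was lower in 3 of 4 pairs of the same number.

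Slc30a5 encodes ZnT5, which carries zinc into the early secretory pathway as a partner of ZnT6. Its log2 signal (probe A_51_P387632) was 10.44, 10.66, 10.64 and 10.37 in WT and 9.97, 10.12, 10.25 and 10.12 in KO. All KO arrays lay below all WT arrays. The difference was -0.41 (standard error 0.11, 95% interval -0.67 to -0.16, adjusted p = 0.0386, limma), and 33.0% of the genes tested had a larger absolute difference. The spread was narrow, with an SD of 0.14 in WT and 0.12 in KO (n = 4 each). A second probe of Slc30a5, A_52_P105501, gave -0.48 (adjusted p = 0.041 in limma over all probes). The call was lost without WT replicate 2 (adjusted p = 0.103), WT replicate 3 (0.0935) or any KO replicate (0.0951, 0.0836, 0.0714 and 0.059 without KO replicates 1 to 4), and with no filter on dim probes (0.0509), always with the same sign.

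Slc30a1 encodes ZnT1, the zinc exporter of the plasma membrane and, like the metallothionein genes, a target of MTF-1. Its log2 signal (probe A_51_P300572) was 9.71, 9.58, 9.94 and 9.17 in WT and 10.04, 10.10, 10.56 and 9.52 in KO. The genotypes overlapped, but within each replicate number the KO array was higher, by 0.34 to 0.62. The difference was 0.46 (standard error 0.24, 95% interval -0.09 to 1.00, adjusted p = 0.1999, limma). Blocked on the replicate number, the same difference had an adjusted p of 0.0366 (limma). A second probe gave 0.42 (adjusted p = 0.267 without the block, limma over all probes).

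The 3 ZIP importers did not pass the threshold. Slc39a4, which encodes the importer ZIP4 known from the intestine, had the widest spread within the genotypes of the 7 transporters (SD 0.93 on the log2 scale), from 9.46 to 11.65 on the WT arrays and from 9.29 to 11.31 on the KO arrays (difference -0.39, standard error 0.56, adjusted p = 0.643, limma). Slc39a8 encodes ZIP8, which imports zinc and manganese. Its log2 signal was 13.39, 12.93, 12.30 and 12.89 in WT and 12.57, 12.05, 11.92 and 12.97 in KO, a difference of -0.50 (standard error 0.29, adjusted p = 0.243), lower in 3 of 4 pairs of the same number. Its second probe gave -0.63 (adjusted p = 0.224). Slc39a14 encodes ZIP14, an importer of zinc, iron and manganese. Its log2 signal ranged from 11.41 to 12.72 in WT and from 11.85 to 12.36 in KO, with a difference of 0.13 (standard error 0.27, adjusted p = 0.753). The sign differed between probes and settings. A second, dimmer probe gave -0.34 (adjusted p = 0.352), the mean of both probes -0.11, and the fit without WT replicate 3 -0.05.

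Mt1 and Mt2 encode the metallothioneins that most cells make, and they lie side by side in the RefSeq gene table, with Mt3 and Mt4 next in order. Log2 signal of Mt1 (probe A_51_P294979) was 16.67, 14.48, 15.19 and 14.13 in WT and 17.19, 15.77, 17.44 and 14.25 in KO. Log2 signal of Mt2 (probe A_51_P246317) was 16.78, 12.98, 14.46 and 12.19 in WT and 17.49, 16.47, 17.72 and 13.89 in KO. The genotypes overlapped for both genes: WT replicate 1 lay above KO replicates 2 and 4, and KO replicate 4 lay below WT replicates 1 and 3.

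The spread of the metallothioneins between dams of 1 genotype was among the widest on the array. Mt2 signal spanned 24.0-fold among the WT dams and 14.3-fold among the KO dams, and Mt1 signal spanned 5.82-fold and 9.10-fold. Of the 14137 genes tested, 14 had a larger SD within the genotypes than Mt2 (1.89 on the log2 scale) and 68 a larger one than Mt1 (1.31), where the median gene had 0.23. Against that spread, the difference for Mt1 was 1.05 (standard error 0.78, 95% interval -0.73 to 2.83, adjusted p = 0.362, limma) and the difference for Mt2 was 2.29, or 4.89-fold (standard error 1.12, 95% interval -0.27 to 4.85, adjusted p = 0.176, limma).

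Within the replicate numbers both metallothioneins had the higher signal in KO. The KO array was higher in 4 of 4 pairs for Mt2, by 0.71, 3.49, 3.26 and 1.69 on the log2 scale in pairs 1 to 4, and in 4 of 4 pairs for Mt1, by 0.52, 1.30, 2.25 and 0.12. Slc30a1, and Slc39a1 and Slc39a13 from outside the 9, were also higher in 4 of 4 pairs. A fit with the replicate block gave adjusted p of 0.032 for Mt2 and 0.0835 for Mt1 (limma). The block took the number of the 9 genes called from 2 to 4, since Slc30a1 and Mt2 were added to Slc30a2 and Slc30a5. Without the block and with 1 array left out, the difference for Mt1 ran from 0.62 without KO replicate 3 to 1.68 without KO replicate 4, and the one for Mt2 from 1.64 without WT replicate 4 to 3.18 without WT replicate 1. Adjusted p for Mt2 was then between 0.0521 and 0.359 (limma).

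**Figure D2:**
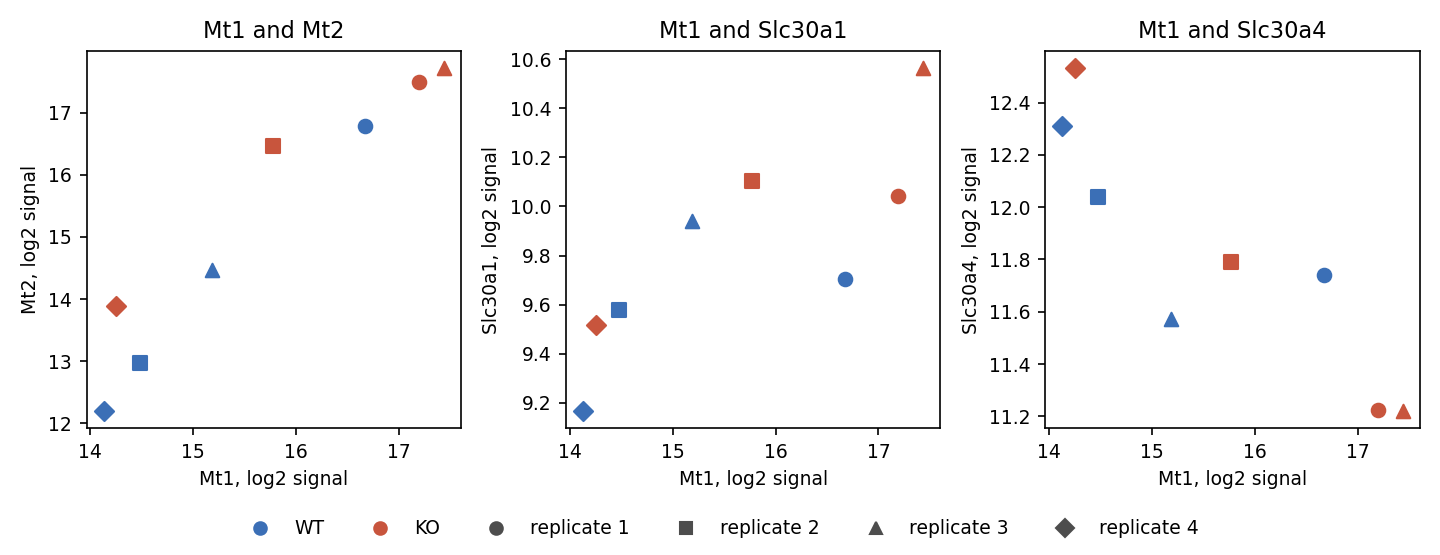
Log2 signal of Mt2, Slc30a1 and Slc30a4 against log2 signal of Mt1 over the 8 arrays (blue WT, red KO, with a symbol for each replicate number). Mt2 rises with Mt1 through both genotypes (r = 0.960), and the points of Slc30a4 run the other way (r = -0.893, not past the threshold after adjustment).

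Mt1 and Mt2 followed each other from array to array. Over the 8 arrays Pearson's r was 0.960 (exact permutation p = 0.000645, two-sided) and Spearman's rho 0.976 (exact permutation p = 0.000397). Without the arrays farthest from the median of Mt1, KO replicates 3 and 1, r was 0.934 over 6 arrays (exact permutation p = 0.00417). With the mean of each genotype subtracted r was 0.967, and an exact permutation test within the genotypes gave p = 0.00174, the smallest it can give (0.0625 when adjusted over the 36 relations described next). With 4 arrays a genotype, and a slide for each, no r was taken within a slide. Whether either probe also binds RNA of the other gene was not tested.

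The relation of Mt1 to Mt2 was 1 of 36 among pairs of the 9 genes, and the other 35 were added after the values had been seen. Adjusted over the 36, the exact permutation p was 0.0232 for Mt1 with Mt2 (0.0143 for rho), and the next lowest was 0.0737. In the test within the genotypes none of the 36 had an adjusted p under 0.05. Slc30a4 with Mt1 had r = -0.893 and rho = -0.905 (exact permutation p = 0.00409 and 0.00456, adjusted p = 0.0737 and 0.0771), and r was -0.844 without KO replicates 4 and 3. Slc30a1 with Mt2 had r = 0.838 and rho = 0.857 (exact permutation p = 0.00838 and 0.0107, adjusted p = 0.0862 and 0.0771). The latter was weaker without KO replicate 3 and WT replicate 4, with r of 0.685 on fewer arrays (exact permutation p = 0.124). With the mean of each genotype subtracted its r was 0.759. After adjustment these 2 relations were not past the threshold.

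Promoter sequences are shown for Mt1, Mt2 and Slc30a1, the genes of the 9 with the KO array above the WT array in 4 of 4 pairs. These 3 were thus picked by their values. MTF-1 is known to act on them in many cells, and this does not mean that it acts on no other of the 9. A part of MTF-1 in the differences was not tested. Capitals mark TGCACNC or TGCGCNC on either strand, the core letters of the metal response element, to which MTF-1 binds. A match on the other strand appears as its reverse complement, and overlapping matches were each counted. Each run holds the 250 bases before the annotated start of the gene, read 5′ to 3′ along its strand from RefSeq sequence of GRCm38.p6, in which all 3 lie on the plus strand: chr8:94178839-94179088 for Mt1, chr8:94172368-94172617 for Mt2 and chr1:191906531-191906780 for Slc30a1.
Mt1: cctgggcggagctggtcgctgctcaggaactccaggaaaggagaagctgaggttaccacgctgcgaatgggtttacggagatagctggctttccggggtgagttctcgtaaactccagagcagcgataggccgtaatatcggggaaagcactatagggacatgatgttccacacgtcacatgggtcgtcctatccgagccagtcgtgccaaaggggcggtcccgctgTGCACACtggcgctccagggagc
Mt2: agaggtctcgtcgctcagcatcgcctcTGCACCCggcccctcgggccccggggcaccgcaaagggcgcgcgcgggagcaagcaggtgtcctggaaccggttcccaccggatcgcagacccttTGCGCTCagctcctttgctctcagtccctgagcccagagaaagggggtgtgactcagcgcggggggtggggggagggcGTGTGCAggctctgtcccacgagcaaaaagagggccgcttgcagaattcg
Slc30a1: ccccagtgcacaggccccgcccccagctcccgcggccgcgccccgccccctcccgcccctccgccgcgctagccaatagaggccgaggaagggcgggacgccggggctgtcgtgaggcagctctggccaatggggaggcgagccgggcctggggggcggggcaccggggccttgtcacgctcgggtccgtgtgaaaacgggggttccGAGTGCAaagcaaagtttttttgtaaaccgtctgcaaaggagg

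The Mt1 window held 1 match, the Mt2 window 3 and the Slc30a1 window 1. Of all 32851 such windows in the table, 21.4% held at least 1 match and 1.26% at least 3. With the 50 bases after the start included, which are not shown, the numbers were 3 for Mt1, 4 for Mt2 and 2 for Slc30a1. For Mt1, 2 of the 3 thus lay across or after the annotated start. Bases farther on were not searched, so the counts depend on where the start is annotated and are not totals for a promoter. Over these windows of 300 bases, 7.11% of all held at least 2 matches, 1.97% at least 3 and 0.517% at least 4. The 250 bases before the start of Slc30a2, Slc30a4 and Slc30a5 held 2, 2 and 1 matches, and of the 2 windows listed for Slc39a8 1 held a match. All 7 of the 9 genes with a window thus held a match, so a match does not set the 3 genes shown apart. A match is a run of letters and not a measured site. The arrays were not used to measure binding.

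Another 20 genes of the same families were looked at as a list. The list took in the rest of the SLC30 and SLC39 transporters, Mt3, Mt4 and Mtf1, and 15 of the 20 were bright enough to be tested. Slc30a3, Slc30a8, Slc30a10, Slc39a5 and Slc39a12 were not. Of the 15, 7 were called lower and 0 higher in the KO glands, beside 8.96% lower and 7.53% higher in the whole table. Genotypes did not overlap in 8 of the 15, beside 24.1% of all genes tested, and the median difference was -0.50, beside -0.02 over all genes tested. At an unadjusted p under 0.05, 7 were lower and 1, Slc39a13, was higher, both in limma (19.6% lower and 16.7% higher over all genes tested) and in the methods' t-test (18.1% and 15.6%). After adjustment the methods' t-test called 5 lower and 0 higher (5.63% and 4.19% over all genes tested).

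**Figure D3:**
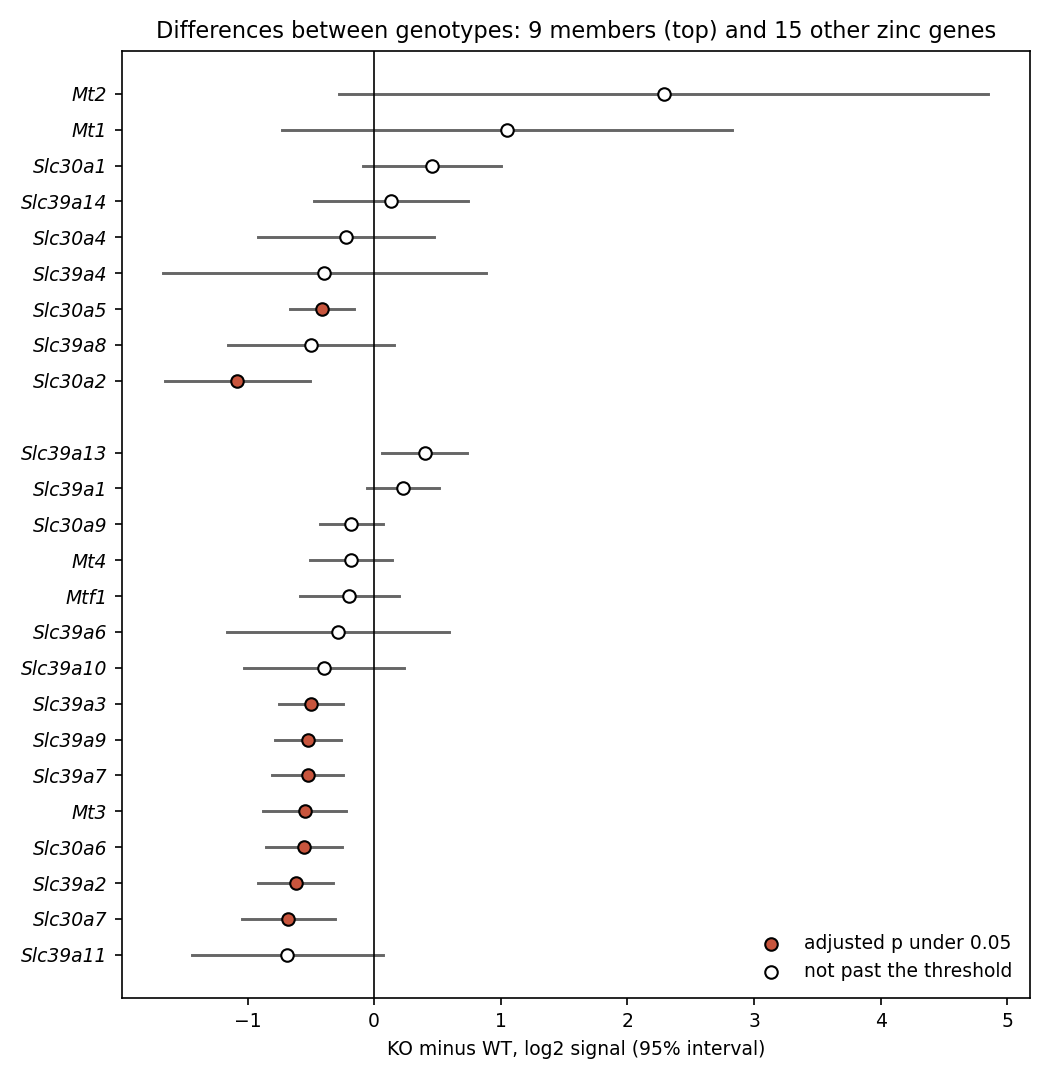
Difference between KO and WT on the log2 scale with its 95% interval from limma, for the 9 genes (top) and the 15 other zinc genes tested (bottom). Filled points have an adjusted p under 0.05. All 9 filled points lie below 0, and the widest intervals belong to Mt2 and Mt1.

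Among the exporters of that list, Slc30a6 and Slc30a7 were lower. Slc30a6 encodes ZnT6, the partner of ZnT5. Its log2 signal was 8.68, 9.19, 8.90 and 8.99 in WT and 8.26, 8.29, 8.42 and 8.56 in KO, a difference of -0.56 (standard error 0.13, adjusted p = 0.029, limma), or 1.47-fold. Slc30a7 encodes ZnT7, a Golgi transporter that supplies zinc to enzymes of the secretory pathway. Its log2 signal was 10.25, 10.703, 10.696 and 10.18 in WT and 9.95, 9.55, 9.90 and 9.72 in KO, a difference of -0.68 (standard error 0.16, adjusted p = 0.0289, limma), or 1.60-fold. Its other 2 probes gave -0.82 and -0.78, with adjusted p of 0.0135 and 0.0168 in limma over all probes.

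Among the importers, Slc39a2, Slc39a3, Slc39a7 and Slc39a9 were lower. Slc39a7 encodes ZIP7, which releases zinc from the endoplasmic reticulum and Golgi. Its log2 signal was 15.32, 15.50, 15.31 and 15.19 in WT and 14.72, 14.69, 14.73 and 15.08 in KO, a difference of -0.53 (adjusted p = 0.0281, limma). KO replicate 4 stood nearest to the WT arrays. With the replicate block the adjusted p was 0.0515. Slc39a9, which encodes ZIP9 of the Golgi and plasma membrane, ranged from 9.37 to 9.73 in WT and from 8.98 to 9.09 in KO, a difference of -0.52 (adjusted p = 0.0227). Slc39a2 and Slc39a3 encode ZIP2 and ZIP3, importers of the plasma membrane. Slc39a2 ranged from 6.19 to 6.66 in WT and from 5.66 to 5.91 in KO, a difference of -0.62 (adjusted p = 0.0213) that was -0.30 when normexp background correction replaced the scanner's own. Slc39a3 ranged from 9.24 to 9.64 in WT and from 8.88 to 9.02 in KO, a difference of -0.50 (adjusted p = 0.0251).

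Mt3, a metallothionein known mainly from the brain, was lower, from 8.64 to 9.13 in WT and from 8.15 to 8.59 in KO, with a difference of -0.55 (adjusted p = 0.0375, limma; 0.0536 with the replicate block). The remaining 8 genes tested lay between -0.69 (Slc39a11, adjusted p = 0.169, limma) and 0.40 (Slc39a13, adjusted p = 0.091). Slc39a11, which encodes ZIP11, was lower in 4 of 4 pairs of the same number, with differences from -0.98 to -0.39, and had an adjusted p of 0.0238 with the replicate block (limma). With that block 6 of the 15 were called, all lower: Slc39a11 was gained and Slc39a7 and Mt3 were lost. Slc39a13 signal did not overlap between the genotypes, but its second probe gave -0.32. Mtf1, the gene of the metal sensor, differed by -0.20 (standard error 0.17, adjusted p = 0.443). Leaving out 1 array at a time, between 0 and 7 of the 15 were called: 0 without KO replicate 1, 2 or 3, 1 without WT replicate 3 and 2 without WT replicate 2. In those 5 fits the whole table held 518 to 982 calls.

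**Figure D4:**
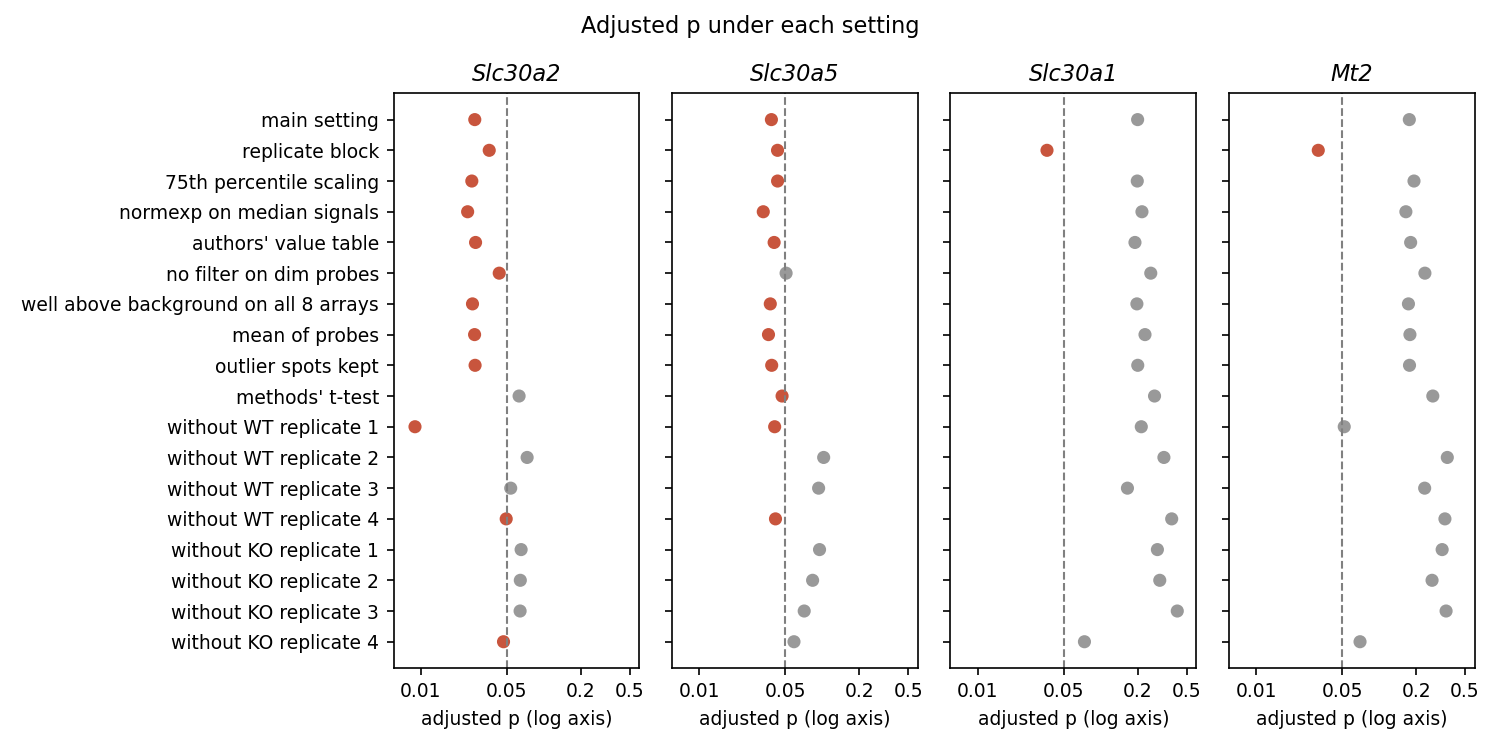
Adjusted p (log axis) of Slc30a2, Slc30a5, Slc30a1 and Mt2 in the main setting and under each alternative. The dashed line is at 0.05 and red points lie below it. Slc30a2 and Slc30a5 cross the line when single arrays are left out, and Slc30a1 and Mt2 cross it with the replicate block.

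Slc30a2 had the smallest p of the 9, and the genes whose signal was most like it over the 8 arrays were Tnfrsf19 (r = 0.992), Krtcap3 (0.991), Gemin2 (0.989), Fam124b (0.980) and Rpa2 (0.980). With the mean of each genotype subtracted, r with these 5 genes was 0.972, 0.970, 0.972, 0.940 and 0.932. The points of each r share the array and its labelling, and the genes were picked for their r out of all genes tested. All 5 were lower in the KO glands, by 0.49 to 1.74 on the log2 scale, with adjusted p between 0.0202 and 0.0299 (limma).

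Markers of the cell types of the gland were measured beside these genes. Over all genes tested 7.53% were called higher and 8.96% lower, so 1 call in a short list does not mark a cell type out. How often sums of other genes part between the genotypes was not counted. The defining markers of alveolar luminal cells, Krt8 and Krt18, were well above background on all arrays. The summed normalized signal of 7 luminal genes was 799700 to 855000 in WT and 858700 to 891200 in KO, with 2 of 7 called higher (Krt18 and Epcam) and 0 lower. Wap alone made up 40.2% to 43.2% of that sum, and without it the ranges overlapped (468200 to 498700 and 494300 to 530000). The alveolar genes Elf5 and Lalba differed by -0.35 (adjusted p = 0.107, limma) and -0.45 (0.197). Summed signal was higher without overlap in the KO glands for 7 adipocyte genes (259500 to 362800 in WT, 369100 to 499400 in KO, with 2 of 7 called higher) and for 5 fibroblast genes (131300 to 162100 and 171000 to 245500, with 1 of 5). Of the 7 adipocyte genes, 5 were higher and 2 lower on average. The 2 called were Plin1 and Cfd, and the defining marker Adipoq was not called (0.35, adjusted p = 0.158, limma). Without Cfd, the brightest adipocyte gene, the adipocyte ranges met (139300 to 193600 and 193400 to 236500). Of the 6 neutrophil genes with a probe, 3 were called higher: Ngp, Camp and Ltf. S100a8, S100a9 and Mpo were higher on average but not called (adjusted p = 0.357, 0.0566 and 0.524, limma). The sum of the 6 was 67280 to 100600 in WT and 169200 to 270500 in KO. Ltf, which milk-secreting epithelium also makes, was 90.5% to 97.6% of that sum, and the other 5 summed to 1608 to 7554 and 7705 to 18730. Ngp and Camp, which define the neutrophil list, were well above background on 0 of 4 WT and 4 of 4 KO arrays. Both passed the filter only through the KO arrays, so their calls rest on WT values that were not well above background. The sum of 6 B cell genes barely parted (379.4 to 548.8 and 550.4 to 959, with 1 of 4 tested called higher). Of the T cell genes 1 of 6, Cd3e, was called lower (565.1 to 1478 and 574.2 to 751.9). Of the skeletal muscle genes 1 of 3 tested, Tnnt3, was called lower (-1.28 on the log2 scale, adjusted p = 0.0367, limma). The other 2 were higher on average but not called, Acta1 by 0.48 (adjusted p = 0.337) and Myh1 by 2.51 (0.112). Summed muscle signal was 1774 to 2120 in WT and 1203 to 6645 in KO. Ckm and Myh4 were each well above background on 0 WT and 2 KO arrays. Myh4 log2 signal was 9.48 and 10.94 on KO replicates 1 and 3, 2.89 and 3.11 on KO replicates 2 and 4, and at most 3.18 in WT. Basal, macrophage and endothelial lists had 0 called in either direction. The part of these cell types in the zinc genes' differences was not tested.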

How the data were processed

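The authors deposited the scanner output of 8 one-colour arrays, with spot intensities from which Agilent Feature Extraction 10.7 (per the labels) had already removed background. They also deposited a table of log2 values, quantile-normalized in GeneSpring per the methods, which served as an alternative. Its columns had medians of 6.32 and correlated at r = 1 with the log2 intensity of the same arrays. Sample titles gave the groups and replicate numbers.

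Log2 intensities were quantile-normalized with limma 3.58.1 in R 4.3.3. Outlier spots (64 to 100 an array) were dropped and the other spots of each probe averaged. Of 41174 probes, 27479 matched a gene symbol by accession in the RefSeq gene table. A probe was kept if all 4 arrays of either genotype had it well above background, and the brightest probe stood for each gene. The fold for Zbtb7b is a lower limit, in which each KO array stands at its dimmest probe that was well above background. The fit was tested on simulated data.

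The 9 genes and all lists were chosen with earlier results of these data known. Named are all 9, the other zinc genes that were called, Zbtb7b, the 5 genes most like the lead gene and defining cell type markers. Mtf1, Slc39a11, Slc39a13, Cd3e, Epcam, Elf5, Lalba, Wap, Cfd, Ltf and the genes not tested are exceptions to that rule, picked with their values in view. So are Slc39a1, S100a8, S100a9, Mpo, Tnnt3 and Myh1. Deviations from the genotype means correlated between arrays of the same number at 0.219, 0.165, 0.304 and 0.283. The numbers were used to pair arrays only in the fit with the replicate block and in the differences by pair. The main fit, its intervals and its calls leave them out. What a numbered set shares is not given in the sources used here. Relations between genes over arrays were tested by exact permutation in Python 3.11.15.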

Additional observations from a re-analysis of the deposited data

Results flagged for a closer look

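Slc39a7 and Slc39a13 were singled out by 1 KO array each. Slc39a7 log2 signal was 15.08 on KO replicate 4, where the other KO arrays lay between 14.69 and 14.73. Slc39a13 log2 signal was 10.91 on KO replicate 4, where the other KO arrays lay between 10.57 and 10.60. In both, the gap from that array to the nearest of the others exceeded the 95% critical value of Dixon's test for 4 samples. Such a gap arises by chance in about 1 of 20 groups, and 2 were found in 48 groups.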

How the results depend on the processing

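The number of the 9 genes called was 2 with all arrays, 4 with the replicate block, 1 with no filter on dim probes, 1 with the methods' t-test and from 0 to 2 with 1 array left out. Of the 15 other zinc genes, 7 were called, and from 0 to 7 with 1 array left out; the replicate block gave 6. Over all genes 2331 were called, 1389 by the methods' t-test, 2762 with the replicate block and from 518 to 3079 with 1 array left out. Slc39a14 turned sign with the mean of its probes (-0.11) and without WT replicate 3 (-0.047), and with 1 array left out it lay between -0.047 and 0.39, never called. The replicate block added Slc30a1, Mt2 and Slc39a11, took away Slc39a7 and Mt3 and changed no other call among the 24 zinc genes tested. Without a filter on dim probes Slc30a5 (adjusted p = 0.0509) and Mt3 (0.0532) missed the threshold, and with the methods' t-test Slc30a2 (0.063), Slc30a7 (0.056) and Mt3 (0.0621) did. The relation of Mt1 to Mt2 kept r between 0.951 and 0.978 with 1 array left out and between 0.953 and 0.960 otherwise. Scaling to the 75th percentile and the authors' value table each left 2 of the 9 and 7 of the 15 called, as did normexp on the median signals, an alternative chosen after seeing the data. Normexp on mean signals was not run, because the scanner columns used here hold the median. Genes near background on every array, 5 of the 20, could not be compared.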
